A study of Drosophila melanogaster with 14 samples.

Results

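The mRNAs of the translation factors were followed in the PDF-positive ventral lateral neurons (LNvs), the clock neurons of the fly brain that release the neuropeptide PDF. These genes were the protein-coding genes whose symbol starts with eIF, eEF or eRF, for eukaryotic initiation, elongation and release factors. They were chosen by name alone, and 54 of the 13792 genes measured met the rule. By role, 8 belong to the preinitiation complex and start codon choice, 5 to the eIF2B exchange factor, 16 to eIF3, 13 to cap binding and the helicase step, 2 to subunit joining or its control, 8 to elongation and 2 to release.

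Sequencing of RNA from sorted LNvs gave 14 libraries, 4 of *Atx2* RNAi (2 at ZT0 and 2 at ZT12), 4 of the *tyf*(e) mutant (2 at ZT4 and 2 at ZT16) and 6 of wild type (1 each at ZT24, ZT2, ZT4, ZT12, ZT14 and ZT16). ZT is zeitgeber time, in hours after lights on, and the study used the ZT24 library as ZT0. All flies were females of the w1118 background kept at 25°C in 12:12 h light and dark, and all carried membrane GFP under Pdf-GAL4 for the sort. The *Atx2* RNAi was driven by Pdf and therefore acted in the LNvs, whereas *tyf*(e) is a mutation of the whole animal. By the study's account, the flies grew on regular food and were aged on sucrose-yeast food before dissection. The age of the flies and any batch or date were not given in the labels. The titles of the wild-type libraries carry the mark HC25, which those of *Atx2* RNAi and *tyf* lack. Whether the wild-type set was prepared together with the others was not given, so genotype cannot be told apart from set of libraries. No source says that replicates came from separate cultures or animals, so the p-values below measure only the spread between these libraries, which may be technical. Wild type had 1 library at each time, so its groups in the tests joined libraries of different hours. Their spread holds time of day as well as differences between libraries, and these cannot be told apart. *Atx2* and *tyf* encode partners in a complex that promotes translation of clock mRNA, and the comparisons ask whether the mRNAs of the general translation machinery differed where either was reduced.

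Translation begins when eIF2, eIF1, eIF1A, eIF5 and eIF3 load the initiator tRNA onto the small ribosomal subunit, and eIF4E, eIF4G and eIF4A bring that complex to the capped end of an mRNA. eIF2B recharges eIF2 with GTP after each round, eIF5B joins the large subunit, the eEF1 complex and eEF2 carry out elongation, and eRF1 with eRF3 ends translation at a stop codon. Neurons depend on the same factors as other cells, with the cap-binding step as a frequent point of control.

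Estimated counts per library ran from 5216112 to 11586874 in *Atx2* RNAi, from 10607063 to 15750143 in *tyf* and from 6217170 to 23507263 in wild type. The RNA of the reduced genes followed the labels. *Atx2* had 207 to 459 normalized counts (counts divided by library size and TMM factor, on the mean scale of the 14 libraries) in *Atx2* RNAi, against 1208 to 2332 in wild type. *tyf* had 348 to 680 normalized counts in *tyf*, against 3240 to 9769 in wild type. Pdf was abundant in every library, at 26.3 to 31.7% of all TPM (the share of each transcript after correction for length) in *Atx2* RNAi, 26.3 to 34.8% in *tyf* and 19.3 to 27.9% in wild type. Of 8 markers of LNvs and neurons, Pdf among them, 1 was called higher and 2 lower in *Atx2* RNAi. In *tyf*, 1 was called higher and 1 lower. The marker sNPF varied widely within each genotype, at 449 to 9288 normalized counts in *Atx2* RNAi, 1412 to 11147 in *tyf* and 407 to 9995 in wild type. Of 7 glial markers, 4 were called higher in *tyf*, and their sum was 1556 to 3285 normalized counts in *tyf*, 157 to 529 in *Atx2* RNAi and 205 to 507 in wild type. Markers of other neurons summed to 436 to 4448 normalized counts in *tyf*, 278 to 1636 in *Atx2* RNAi and 1467 to 2285 in wild type, of which Gad1 alone reached 3426 in *tyf*, 1005 in *Atx2* RNAi and 272 in wild type. Of these 6 markers, 2 (ChAT and VAChT) were called lower in each of *Atx2* RNAi and *tyf*, with VAChT at 63.0 to 256 in *Atx2* RNAi and 102 to 243 in *tyf*, against 471 to 957 in wild type. The 5 photoreceptor markers summed to 51.9 to 1760 in *tyf*, 12.7 to 76.6 in *Atx2* RNAi and 64.1 to 299 in wild type. Of these, ninaE alone reached 1615 in *tyf*. None of the 5 was called in *tyf*, and 1 was called lower in *Atx2* RNAi. The part of these cells in the results on *Atx2* RNAi and *tyf* was not tested. In RNA from pooled cells, fewer cells of a type and less RNA per cell cannot be told apart.

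LNvs carried mRNA for each step of translation, mostly at high levels. Of the 54 genes, 45 had more than 3 counts in every library, 21 had a median above 100 TPM and 21 lay between 10 and 100 TPM. *eEF1alpha1*, which delivers aminoacyl-tRNA to the ribosome, was the highest, with median levels of 1536 TPM in *Atx2* RNAi, 886 TPM in *tyf* and 1451 TPM in wild type. Its paralogue *eEF1alpha2* had 844, 660 and 1158 TPM in *Atx2* RNAi, *tyf* and wild type, in that order. The helicase *eIF4A*, the hypusine-containing factor *eEF5* and the translocase *eEF2* came next, and the 5 highest genes held 41.6 to 53.6% of the summed TPM of the 54. Below them, *eRF1* had 38.3, 24.1 and 63.9 TPM and *eIF2Bbeta* 32.5, 44.3 and 35.3 TPM in the same order, and the plot of TPM levels shows each gene by role.

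**Figure D1:**
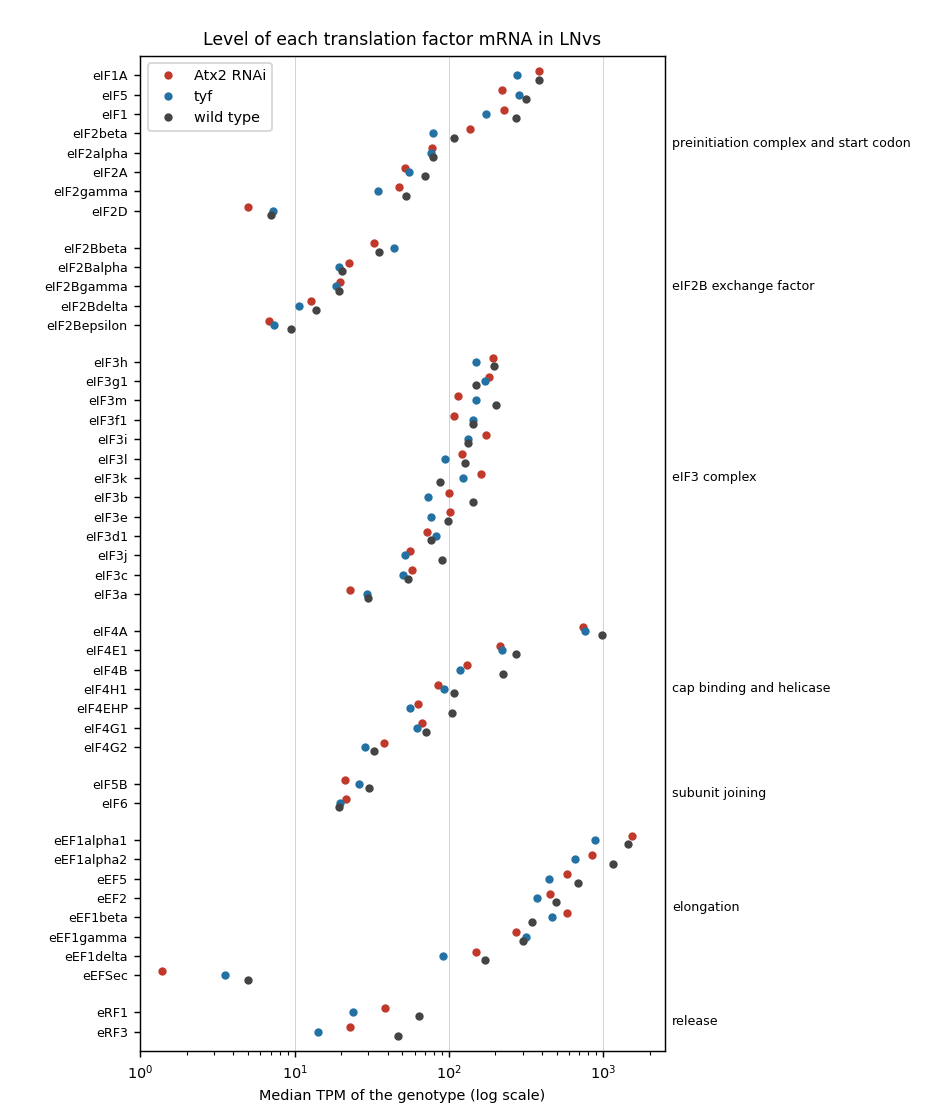
Median TPM (log axis) of the 45 translation factor genes with more than 3 counts in every library, grouped by role, with 1 point each for *Atx2* RNAi (n = 4), *tyf* (n = 4) and wild type (n = 6). Elongation factors lie at the right, led by *eEF1alpha1* at 1536, 886 and 1451 TPM, and *eEFSec* lies at the left.

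Paralogues were unevenly used. Of the 7 genes of the cap-binding eIF4E family, *eIF4E1* was the abundant one, with a median of 215 TPM in *Atx2* RNAi, 221 TPM in *tyf* and 272 TPM in wild type. *eIF4EHP*, which binds the cap without recruiting eIF4G, had 63.3, 55.6 and 104 TPM in the same order. *eIF4E3*, *eIF4E4*, *eIF4E5*, *eIF4E6* and *eIF4E7* did not reach 3 TPM in any library. Of the eIF3 pairs, *eIF3d1*, *eIF3f1* and *eIF3g1* had medians of 76.4, 136 and 170 TPM over all libraries, whereas *eIF3d2*, *eIF3f2* and *eIF3g2* had medians of 0.101, 0 and 0.211 TPM. In all, 8 genes were too low to be tested over the 14 libraries (*eIF3d2*, *eIF3f2*, *eIF3g2*, *eIF4E3*, *eIF4E4*, *eIF4E6*, *eIF4E7* and *eIF4H2*), none of which exceeded 28 counts or 3.18 TPM, and 46 entered the test.

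As a share of all transcripts, the 54 genes summed to 7392 to 9597 TPM in *Atx2* RNAi, 6896 to 7368 TPM in *tyf* and 9064 to 10417 TPM in wild type. The 4 *tyf* libraries thus lay below all 6 wild-type libraries on the TPM scale. With Pdf taken out of the total, the sums, rescaled to the same total, were 10027 to 13203 TPM in *Atx2* RNAi, 9639 to 10964 in *tyf* and 11597 to 13739 in wild type, and *tyf* still lay below wild type without overlap. The sums of normalized counts, which the highest genes dominate, were 102643 to 108348 in *Atx2* RNAi, 77164 to 97927 in *tyf* and 89516 to 104759 in wild type, and there *tyf* and wild type overlapped. Changes below are relative to the TMM scale. Scaling by library size alone would move the median log2 change of all genes in *tyf* over wild type to -0.34, against -0.02 with TMM.

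Over both times, 6 of the 46 genes were called between *Atx2* RNAi and wild type, with *eEF1beta*, *eIF3k*, *eIF3i* and *eIF4G2* higher and *eEFSec* and *eIF4B* lower. This was 13% of the genes tested, against 16.1% of all 9695 genes called in that comparison, 8.41% higher and 7.69% lower (edgeR quasi-likelihood test, adjusted p under 0.05), so the share called among translation factors lay near that of the transcriptome. In *tyf*, 10 of the 46 genes were called, or 21.7%, against 17% of all genes, 8.4% higher and 8.6% lower. *eEF1beta*, *eIF3k*, *eIF2Bbeta* and *eEF1gamma* were higher, and *eRF1*, *eRF3*, *eIF3b*, *eEF1delta*, *eEF1alpha2* and *eIF4B* were lower. The median log2 change of the 46 genes was 0.08 in *Atx2* RNAi and 0.07 in *tyf*, against -0.02 for all genes in both comparisons. Both comparisons used the same 6 wild-type libraries. Scaling by library size alone gave 5 higher and 1 lower in *Atx2* RNAi and 1 higher and 12 lower in *tyf*, where the split over all genes went to 328 higher and 1959 lower, against 814 and 834 with TMM.

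**Figure D2:**
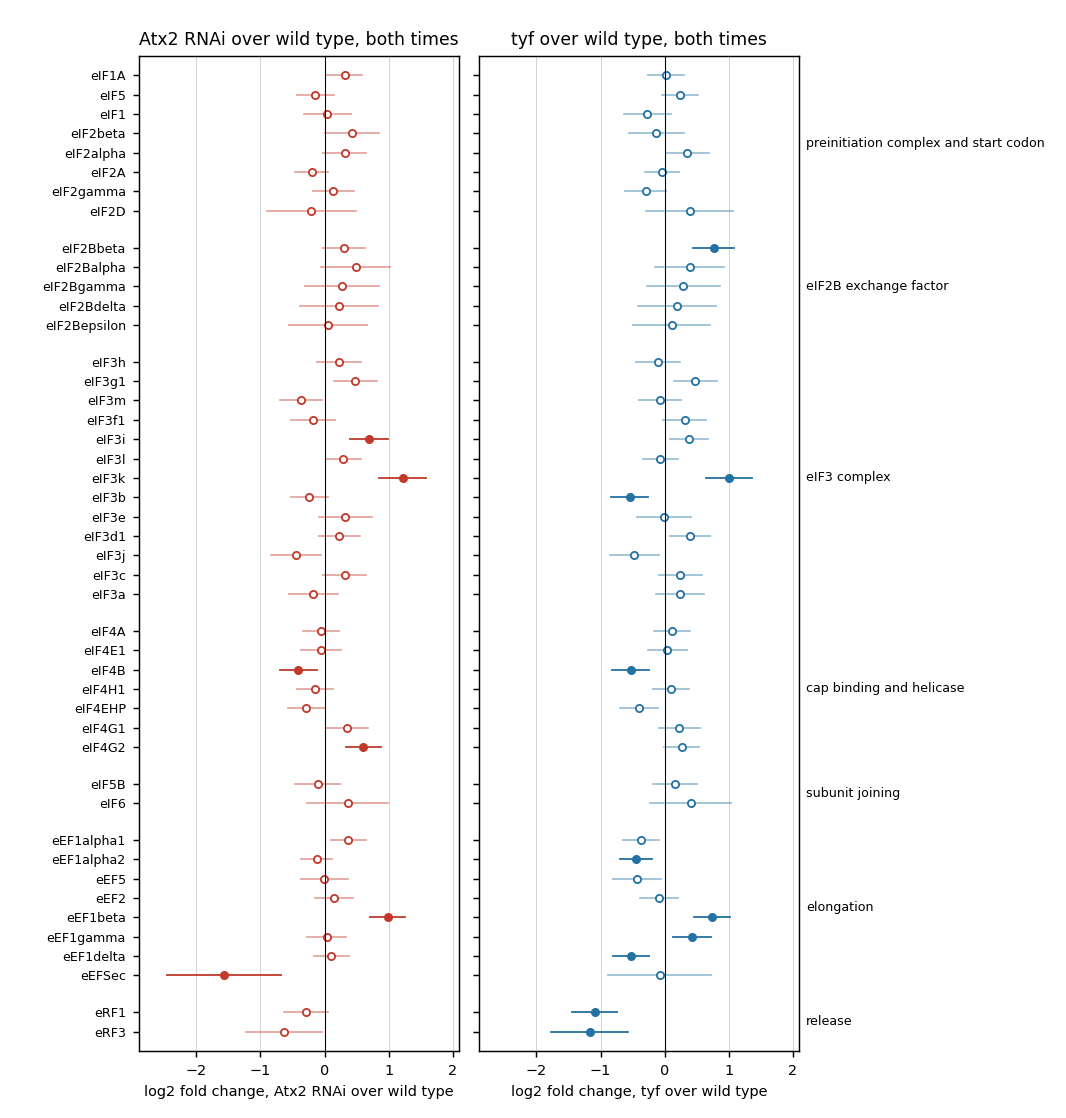
Log2 fold change (points) with 95% confidence interval (lines) of 45 tested translation factor genes, grouped by role, for *Atx2* RNAi over wild type (left) and *tyf* over wild type (right), both times together (the scarce *eIF4E5* is left out). Filled points passed an adjusted p of 0.05 over all genes: 6 in *Atx2* RNAi, led by *eIF3k* at 1.21, and 10 in *tyf*, with *eRF3* lowest at -1.17.

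Subunits of eIF3, the large scaffold that keeps the small subunit open for mRNA, moved unevenly, with 2 of 13 tested subunits called higher in *Atx2* RNAi, and 1 higher and 1 lower in *tyf*. *eIF3k*, a peripheral subunit of the complex (FBgn0034654, chromosome 2R, 21685283 to 21686201, plus strand), had 759 and 922 normalized counts at ZT0 and 863 and 837 at ZT12 in *Atx2* RNAi. The *tyf* libraries had 583 and 622 (ZT4) and 742 and 1001 (ZT16), and the lowest, median and highest wild-type libraries had 279, 368 and 509. Each of these 8 libraries lay above all 6 of wild type. The log2 change was 1.21 ± 0.17 (SE) in *Atx2* RNAi (2.32-fold, adjusted p = 0.000181, edgeR) and 1.00 ± 0.17 in *tyf* (2.00-fold, adjusted p = 0.00102, edgeR), and both calls held in all 21 alternatives. *eIF3k* was also the one translation factor called in each of the 4 comparisons at a single time, with log2 changes between 1.09 and 1.26, although each of those calls was lost when one of 2 to 5 libraries was left out and with scaling by library size. *Tbp*, which overlaps *eIF3k* on the other strand, had a median of 120 normalized counts in *Atx2* RNAi, 174 in *tyf* and 135 in wild type, and was not called (log2 change -0.20 in *Atx2* RNAi and 0.34 in *tyf*).

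*eIF3i*, a WD-repeat subunit (FBgn0015834, chromosome 2L, 4966367 to 4967775, minus strand), had 1120 and 1242 normalized counts at ZT0 and 1438 and 1390 at ZT12 in *Atx2* RNAi, against 715, 760 and 965 in the lowest, median and highest wild-type libraries. The *Atx2* RNAi and wild-type libraries did not overlap, and the log2 change was 0.70 ± 0.14 (adjusted p = 0.00295, edgeR). In *tyf* the values were 1059 and 1065 at ZT4 and 865 and 1110 at ZT16, which overlapped wild type (log2 change 0.37, adjusted p = 0.0786, edgeR). *eIF3b*, a scaffold subunit that binds the ribosome, fell in *tyf* to 1430 and 1332 at ZT4 and 1123 and 1340 at ZT16, against 1658, 2007 and 2185 in wild type (log2 change -0.55 ± 0.14, adjusted p = 0.0123, edgeR). The *eIF3b* call was lost, at an adjusted p of 0.0501, without *tyf* ZT16 replicate 1. In *Atx2* RNAi *eIF3b* had 1421 to 1736 normalized counts (log2 change -0.24, adjusted p = 0.267, edgeR). *eIF3g1*, whose product binds mRNA at the entry channel, lay just outside the threshold in both, with log2 changes of 0.48 in *Atx2* RNAi (adjusted p = 0.0537, edgeR) and 0.48 in *tyf* (adjusted p = 0.0517, edgeR).

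Of the preinitiation factors and the eIF2B exchange factor, *eIF2Bbeta* was the only gene called with both times together. The 8 preinitiation genes had log2 changes of -0.21 to 0.43 in *Atx2* RNAi and -0.30 to 0.39 in *tyf*, and the 5 eIF2B genes 0.05 to 0.49 in *Atx2* RNAi and 0.11 to 0.77 in *tyf*. The genes grouped under subunit joining or its control, *eIF5B* and *eIF6*, were not called either. *eIF2Bbeta*, a regulatory subunit of the exchange factor (FBgn0024996, chromosome X, 2704571 to 2706217, plus strand), had 371 and 422 normalized counts at ZT4 and 421 and 408 at ZT16 in *tyf*, against 193, 255 and 281 in the lowest, median and highest wild-type libraries. No *tyf* library overlapped wild type, and the log2 change was 0.77 ± 0.15 (1.70-fold, adjusted p = 0.00293, edgeR). The call was lost only with scaling by library size (log2 change 0.44). In *Atx2* RNAi its 255 to 367 normalized counts overlapped wild type (log2 change 0.31, adjusted p = 0.201, edgeR). *CG2680*, on the other strand over *eIF2Bbeta*, went the opposite way, with log2 changes of -1.33 in *Atx2* RNAi (adjusted p = 0.000661, edgeR) and -0.81 in *tyf* (adjusted p = 0.0152, edgeR, lost without *tyf* ZT16 replicate 2 at 0.0505). Whether counting used the strand was not stated, so reads of such a pair cannot be told apart with certainty. *eIF2alpha*, the subunit whose phosphorylation by *Gcn2* and *PEK* lowers translation, was not called in either (log2 change 0.31 in *Atx2* RNAi and 0.35 in *tyf*, adjusted p = 0.207 and 0.137, edgeR).

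At the cap-binding step, the levels of the central factors did not separate the genotypes. *eIF4E1*, which binds the cap, had 1453 to 1871 normalized counts in *Atx2* RNAi, 1644 to 1894 in *tyf* and 1359 to 2056 in wild type. *eIF4A* had 8214 to 10805 in *Atx2* RNAi, 8127 to 11938 in *tyf* and 8954 to 10301 in wild type, and the scaffold *eIF4G1* had 2192 to 3261, 1953 to 2880 and 1738 to 2580. The ranges of the genotypes overlapped in each of these genes, and none was called.

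The second eIF4G gene differed. *eIF4G2*, a scaffold known in flies for its role in spermatogenesis, had 2455 and 2016 normalized counts at ZT0 and 2395 and 2080 at ZT12 in *Atx2* RNAi, against 1301, 1517 and 1698 in the lowest, median and highest wild-type libraries. These did not overlap, and the log2 change was 0.60 ± 0.13 (1.52-fold, adjusted p = 0.00447, edgeR), with the call lost at an adjusted p of 0.0524 without *Atx2* RNAi ZT0 replicate 1. In *tyf* *eIF4G2* had 1639 to 1866 normalized counts (log2 change 0.26, adjusted p = 0.174, edgeR, and -0.056 with scaling by library size). *eIF4B*, which stimulates the helicase *eIF4A*, was lower in both, with 1255 to 1495 in *Atx2* RNAi, 1070 to 1365 in *tyf* and 1411 to 2013 in wild type. Its log2 change was -0.53 ± 0.14 in *tyf* (adjusted p = 0.0144, edgeR, lost at 0.0612 without *tyf* ZT16 replicate 2). In *Atx2* RNAi it was -0.41 ± 0.14 (adjusted p = 0.049, edgeR), and that call was lost in 14 of 21 alternatives, among them 11 of the 14 that left out 1 library, with log2 changes of -0.50 to -0.36. *eIF4EHP* had log2 changes of -0.28 in *Atx2* RNAi and -0.40 in *tyf* and was not called (adjusted p = 0.187 and 0.0559, edgeR).

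**Figure D3:**
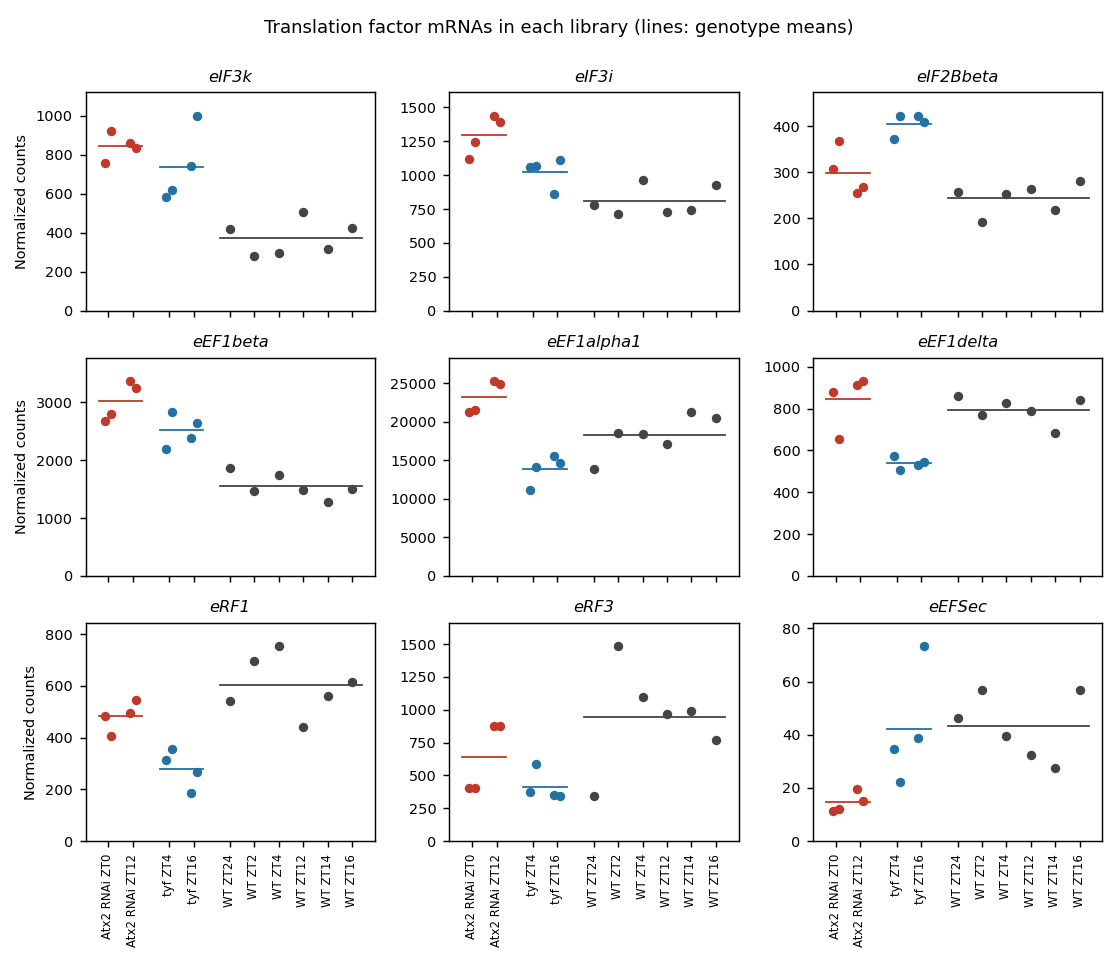
Normalized counts (axes from 0) of 9 translation factor genes in each of the 14 libraries, with *Atx2* RNAi in red, *tyf* in blue, wild type in grey and horizontal lines at the genotype means. *eIF3k* and *eEF1beta* sit above wild type in each of the 8 *Atx2* RNAi and *tyf* libraries, *eRF1* sits below wild type in all 4 *tyf* libraries, and the wild-type ZT24 library has 347 normalized counts of *eRF3*, far from the other wild-type libraries.

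Among elongation factors, the genes of the eEF1 complex moved apart from each other. *eEF1beta*, the exchange factor that reloads eEF1alpha with GTP (FBgn0028737, chromosome 2R, 16868222 to 16869280, plus strand), had 2677 and 2801 normalized counts at ZT0 and 3369 and 3250 at ZT12 in *Atx2* RNAi. Its *tyf* values were 2189 and 2834 (ZT4) and 2385 and 2651 (ZT16), and wild type had 1279, 1497 and 1867 in the lowest, median and highest wild-type libraries. Both genotypes lay wholly above wild type, with log2 changes of 0.98 ± 0.13 in *Atx2* RNAi (1.97-fold, adjusted p = 0.000116, edgeR) and 0.73 ± 0.13 in *tyf* (1.66-fold, adjusted p = 0.00154, edgeR). The call in *Atx2* RNAi held in all 21 alternatives, and that in *tyf* was lost only with scaling by library size (log2 change 0.40).

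*eEF1delta*, the other exchange subunit, fell in *tyf*. It had 573 and 506 normalized counts at ZT4 and 531 and 547 at ZT16 in *tyf*, against 685, 807 and 862 in wild type. The *tyf* and wild-type libraries did not overlap (log2 change -0.53 ± 0.13, adjusted p = 0.0134, edgeR), and the call held in all 21 alternatives. In *Atx2* RNAi the range of *eEF1delta* was 657 to 932 normalized counts. *eEF1gamma*, the structural subunit, had 2893 to 3846 normalized counts in *tyf* and 2442 to 2940 in wild type (log2 change 0.42 ± 0.14, adjusted p = 0.0494, edgeR), a call that 17 of 21 alternatives lost, 13 of them by leaving out 1 library (log2 changes of 0.29 to 0.48). Its range in *Atx2* RNAi was 2131 to 3031.

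The paralogues that encode eEF1alpha also differed. *eEF1alpha1* had 21334 and 21511 normalized counts at ZT0 and 25300 and 24978 at ZT12 in *Atx2* RNAi, 11127 and 14091 at ZT4 and 15563 and 14700 at ZT16 in *tyf*, and from 13888 through a median of 18529 up to 21329 in wild type. Every *Atx2* RNAi library was above the highest wild-type library, the nearest by a narrow margin, whereas the *tyf* libraries overlapped wild type, with 1 of 4 below its lowest library. Neither change against wild type was called (log2 change 0.37, adjusted p = 0.0651 in *Atx2* RNAi, and -0.37, adjusted p = 0.0679 in *tyf*, edgeR). *eEF1alpha2*, which in mammals is the form of neurons and muscle, fell in *tyf* to 9353 and 10177 normalized counts at ZT4 and 13987 and 13094 at ZT16, against 14896, 15703 and 18538 in wild type. Its log2 change was -0.45 ± 0.11 (adjusted p = 0.0142, edgeR), lost at 0.0601 without *tyf* ZT16 replicate 2, and in *Atx2* RNAi it was -0.12 (adjusted p = 0.528, edgeR). *eEF2* (log2 change 0.14 in *Atx2* RNAi and -0.09 in *tyf*) was not called (adjusted p = 0.551 and 0.692, edgeR).

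*eEFSec*, the elongation factor for selenocysteine, was scarce, with 11.4 and 11.9 normalized counts at ZT0 and 19.6 and 15.3 at ZT12 in *Atx2* RNAi, against 27.5, 43.0 and 56.9 in the lowest, median and highest wild-type libraries. These did not overlap (log2 change -1.57 ± 0.42, 2.96-fold lower, adjusted p = 0.0172, edgeR), but the call was lost without any 1 of the 4 *Atx2* RNAi libraries (adjusted p of 0.0576 to 0.0886). The *tyf* libraries had 22.4 to 73.2 normalized counts and spanned wild type.

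Both release factors fell in *tyf*. *eRF1*, which reads the stop codon (FBgn0036974, chromosome 3L, 20348355 to 20353873, plus strand), had 314 and 357 normalized counts at ZT4 and 184 and 266 at ZT16 in *tyf*, against 443, 589 and 752 in the lowest, median and highest wild-type libraries. No *tyf* library reached wild type (log2 change -1.09 ± 0.17, 2.13-fold lower, adjusted p = 0.00042, edgeR), and the call held in all 21 alternatives. In *Atx2* RNAi *eRF1* had 408 to 547 normalized counts (log2 change -0.29, adjusted p = 0.253, edgeR). *CG5618*, which overlaps *eRF1* on the same strand, was also called lower, with log2 changes of -0.71 in *Atx2* RNAi and -0.70 in *tyf* (adjusted p = 0.0258 in each, edgeR), calls lost in *Atx2* RNAi without any 1 of its 4 libraries or the wild-type ZT2 library (adjusted p of 0.0506 to 0.110), and in *tyf* without ZT4 replicate 2 or ZT16 replicate 2 (0.0938 and 0.124).

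*eRF3*, the GTPase partner of *eRF1* (FBgn0020443, chromosome 2L, 12434452 to 12441279, plus strand), had 375 and 589 normalized counts at ZT4 and 353 and 341 at ZT16 in *tyf*, with a log2 change of -1.17 ± 0.28 (2.25-fold lower, adjusted p = 0.0103, edgeR) that held in all 21 alternatives. Its wild-type values were uneven, with 347 normalized counts in the ZT24 library and 773 to 1483 in the other 5, so that the *tyf* libraries lay below wild type except at ZT24. In *Atx2* RNAi it had 406 and 405 at ZT0 and 879 and 875 at ZT12. Against wild type, the change of *eRF3* in *Atx2* RNAi with both times together was -0.63 (adjusted p = 0.141, edgeR). Without the wild-type ZT24 library it was -0.83 (adjusted p = 0.00222, edgeR), and that of ZT0 alone was -1.88 (adjusted p = 0.000559, edgeR), against -1.19 (adjusted p = 0.156, edgeR) with it and 0.20 without the wild-type ZT2 library. The call of *eRF3* at ZT0 also turned on the tool and the filter, with all libraries kept, since it was made by DESeq2 (-1.20, adjusted p = 0.0493) and by edgeR without a filter on low counts (-1.17, adjusted p = 0.000227).

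The comparisons at a single time each had 2 libraries of *Atx2* RNAi or *tyf* and 2 of wild type, and called fewer genes. In *Atx2* RNAi at ZT0, 1 of 46 genes (*eIF3k*, higher) was called, against 7.3% of all genes, 3.68% up and 3.62% down. At ZT12, 4 of 46 were called, all higher (*eEF1beta* with a log2 change of 1.30, *eIF2beta* with 1.11, *eIF3k* with 1.09 and *eIF3i* with 0.99), against 6.83% of all genes, or 3.23% higher and 3.6% lower. *eIF2beta*, the eIF2 subunit that contacts *eIF5* and eIF2B, had 1248 and 1144 normalized counts at ZT12 and 584 and 784 at ZT0 in *Atx2* RNAi, against 481 to 1027 over all wild-type libraries, and its call was lost without either *Atx2* RNAi ZT12 library or either of the wild-type ZT12 and ZT14 libraries (adjusted p of 0.0542 to 0.224), with scaling by library size (0.105) and with all wild-type libraries pooled (0.0532). In *tyf* at ZT4, 3 of 46 were called (*eRF3* with -1.39, *eRF1* with -1.09 and *eIF3k* with 1.09), against 4.3% of all genes, or 2.37% higher and 1.94% lower. At ZT16, 4 of 46 were called (*eRF1* with -1.36, *eRF3* with -1.32, *eIF3k* with 1.26 and *eEF1beta* with 0.88), against 6.22% of all genes, or 2.94% higher and 3.28% lower. Both *eRF3* calls were lost with all wild-type libraries pooled, and without any 1 of 2 libraries at ZT4 and of 3 at ZT16. The *eRF1* call was lost without any 1 of 3 libraries or with only the 4 libraries at ZT4, and without 1 library at ZT16. That of *eEF1beta* at ZT16 was lost without any 1 of 4 libraries and with scaling by library size. In *Atx2* RNAi at ZT12, *eEF1beta* and *eIF3i* lost the call without any 1 of 2 and 4 libraries. Leaving out 1 library at a time gave 0 to 3 genes at ZT0, 0 to 4 at ZT12, 0 to 3 at ZT4 and 1 to 4 at ZT16.

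Read by overlap alone, 5 of the 46 genes (10.9%) had all 4 *Atx2* RNAi libraries above all 6 wild-type libraries (*eEF1alpha1*, *eEF1beta*, *eIF3i*, *eIF3k* and *eIF4G2*), against 6.49% of all genes. Only *eEFSec* lay wholly below, against 5.63% of all genes. In *tyf*, 3 genes lay wholly above (*eEF1beta*, *eIF2Bbeta* and *eIF3k*), against 5.45% of all genes, and 5 wholly below (*eEF1alpha2*, *eEF1delta*, *eIF3b*, *eIF4B* and *eRF1*), against 6.02%.

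Set against each other over both times, *Atx2* RNAi and *tyf* differed in 4 of the 46 genes, against 9.16% of all genes (4.4% higher and 4.76% lower in *Atx2* RNAi). The sampling times of these genotypes differ by 4 h, and the difference cannot be told apart from that. Of 7 glial markers, 5 were called lower and 0 higher in *Atx2* RNAi than in *tyf*, and the part of glial RNA was not tested. *eEF1alpha1* was higher in *Atx2* RNAi by a log2 difference of 0.74 ± 0.14 (21334 to 25300 normalized counts in *Atx2* RNAi, against 11127 to 15563 in *tyf*, adjusted p = 0.00483, edgeR), in all 21 alternatives. *eRF1* was higher in *Atx2* RNAi by 0.80 ± 0.18 (adjusted p = 0.0106, edgeR, lost without *Atx2* RNAi ZT12 replicate 2 or *tyf* ZT16 replicate 1, at 0.0517 and 0.0561). *eEF1delta* was higher in *Atx2* RNAi by 0.63 ± 0.14 (adjusted p = 0.0127, edgeR), a call lost without *Atx2* RNAi ZT0 replicate 1 (adjusted p = 0.0831), *Atx2* RNAi ZT12 replicate 2 (0.0558) or *tyf* ZT16 replicate 1 (0.0502). *eEFSec* was lower in *Atx2* RNAi, with a log2 difference of -1.49 ± 0.44 (adjusted p = 0.0453, edgeR), a call lost in 15 of 21 alternatives, among them 12 of the 14 that left out 1 library. With scaling by library size alone 19 of the 46 genes differed, all higher in *Atx2* RNAi. The split over all genes then went to 1607 higher and 241 lower, against 427 and 461 with TMM.

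No translation factor was called between times of day. Between wild-type morning (ZT24, ZT2 and ZT4) and evening (ZT12, ZT14 and ZT16), 0 of 46 genes were called by edgeR and by DESeq2, against 2.05% of all genes by edgeR, and 2 had an unadjusted p under 0.05. Between ZT0 and ZT12 in *Atx2* RNAi, 0 were called by edgeR and by DESeq2, against 2.69% of all genes, with 2 at an unadjusted p under 0.05 (*eRF3* and *eIF2beta*). Between ZT4 and ZT16 in *tyf*, 0 were called by both tools, against 0.423% of all genes, with 3 at an unadjusted p under 0.05. The interaction of genotype and time also called 0 by both tools, against 1.14% of all genes for *Atx2* RNAi and 0.0825% for *tyf*, with 2 and 0 genes at an unadjusted p under 0.05. Without the wild-type ZT24 library, *eRF3* was called lower at ZT0 than at ZT12 in *Atx2* RNAi (log2 change -1.13, adjusted p = 0.0147, edgeR, against 0.240 with it) and in the interaction (-1.65, adjusted p = 0.0123, edgeR, against 0.403 with it). The comparison of ZT0 with ZT12 holds no wild-type library, but its spread was estimated over all libraries of the fit. Its log2 change for *eRF3* stayed at -1.13 to -1.11 whichever 1 library was left out. The median 95% interval of a translation factor spanned 0.42 log2 units to either side in the wild-type comparison and 0.51 in each of *Atx2* RNAi and *tyf*.

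Transcript use within a gene was described without a test. Of 5078 tested genes with at least 2 transcripts, 30 were translation factors. In *tyf* the share of the leading transcript lay above all wild-type libraries in 3 of them (*eIF4E1*, *eIF1A* and *eEF1alpha1*), against 4.21% of the 5078 genes, and below in 0, against 2.28%. In *Atx2* RNAi it lay above in 1 (*eIF3c*), against 2.84%, and below in 1 (*eIF3a*), against 2.42%. The leading transcript of *eIF4E1* (FBtr0076488, 1 of 9) held 85.3 to 93.0% of its TPM in *tyf*, against 62.8 to 79.0% in wild type, and 77.9 to 88.4% in *Atx2* RNAi. That of *eIF1A* (FBtr0343927, 1 of 3) held 78.3 to 100% in *tyf*, against 40.5 to 77.8% in wild type, and 65.0 to 97.8% in *Atx2* RNAi. Short single-end reads assign poorly between transcripts that share most exons, and amplification from the 3′ end may weigh transcripts differently.

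Of 32 listed regulators of translation, 31 were tested (*cup* was too low), and again a minority were called. In *Atx2* RNAi 3 were called, all lower (*Atx2* itself, *pAbp* and *crc*), against 16.1% of all genes, and the *crc* call was lost without *Atx2* RNAi ZT0 replicate 2 or ZT12 replicate 2 (adjusted p = 0.115 and 0.102, edgeR). In *tyf* 7 were called, against 17% of all genes, with *tyf* itself, *gw*, *gig*, *Rheb* and *4E-T* lower and *pAbp* and *bel* higher, of which *gig*, *4E-T* and *bel* lost the call when 1 of 4, 9 and 3 libraries was left out. *pAbp*, the poly(A)-binding protein that *Atx2* binds and that links the tail of an mRNA to eIF4G, went opposite ways. It had 8574 and 8683 normalized counts at ZT0 and 8099 and 6997 at ZT12 in *Atx2* RNAi, 15168 and 24384 at ZT4 and 21633 and 24007 at ZT16 in *tyf*, and 11648 to 14547 in wild type. No library of either genotype overlapped wild type. The log2 change was -0.65 ± 0.15 in *Atx2* RNAi (adjusted p = 0.00633, edgeR) and 0.75 ± 0.14 in *tyf* (adjusted p = 0.00223, edgeR), and the difference between the genotypes was -1.41 ± 0.16 (adjusted p = 7.52e-05, edgeR), with all 3 calls kept in 21 alternatives each.

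**Figure D4:**
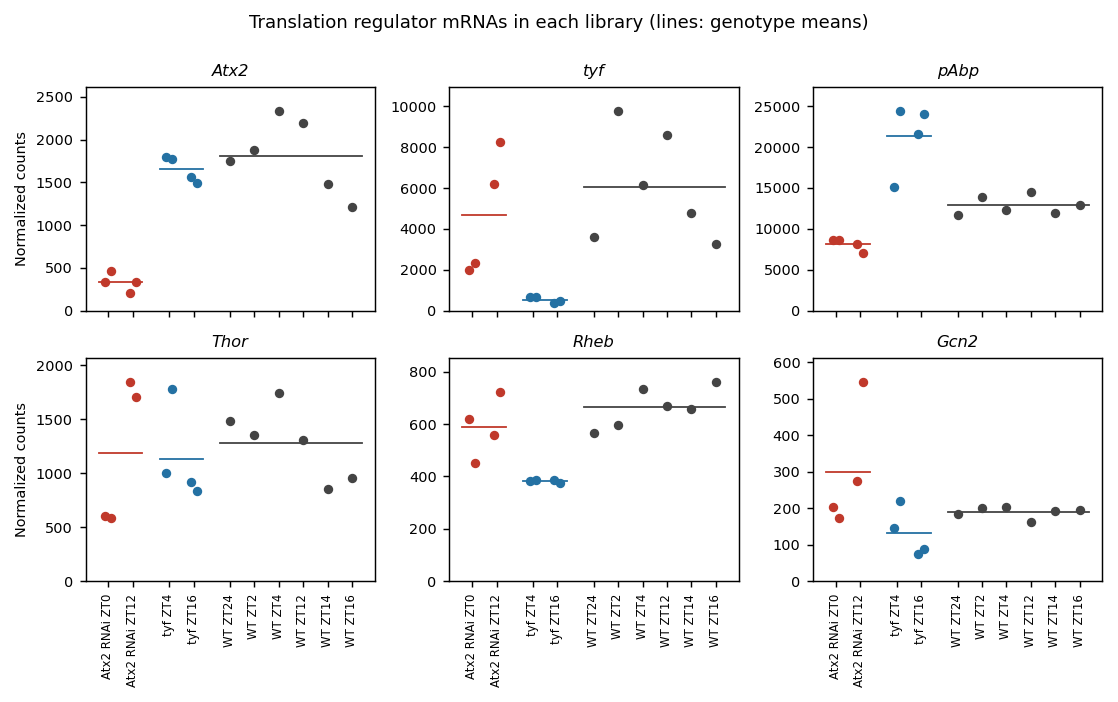
Normalized counts (axes from 0) of 6 regulators of translation in each of the 14 libraries, with *Atx2* RNAi in red, *tyf* in blue, wild type in grey and horizontal lines at the genotype means. *pAbp* lies below wild type in *Atx2* RNAi (6997 to 8683) and above it in *tyf* (15168 to 24384), and *Thor* is low at ZT0 in *Atx2* RNAi (608 and 582).

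*Thor*, the 4E-BP that keeps *eIF4E1* from *eIF4G1*, had 608 and 582 normalized counts at ZT0 and 1848 and 1706 at ZT12 in *Atx2* RNAi, against 1355 to 1748 in wild-type morning and 851 to 1305 in wild-type evening. It was lower in *Atx2* RNAi at ZT0 (log2 change -1.28 ± 0.24, adjusted p = 0.00895, edgeR), with a log2 change of 0.77 at ZT12 (adjusted p = 0.0743, edgeR), and the ZT0 call was lost without either of its 2 *Atx2* RNAi libraries (adjusted p = 0.0757 and 0.0764). Over the 14 libraries, with wild-type morning and evening as the controls, the difference between the effects at ZT0 and ZT12 was -2.17 ± 0.35 (adjusted p = 0.00586, edgeR), lost only without *Atx2* RNAi ZT0 replicate 2 (-2.14, adjusted p = 0.0524). *tyf* mRNA was itself lower in *Atx2* RNAi at ZT0, at 1979 and 2348 normalized counts, against 3608 and 9769 in the wild-type ZT24 and ZT2 libraries (log2 change -1.65 ± 0.42, adjusted p = 0.0373, edgeR), a call that 8 of 17 alternatives lost, 5 by leaving out 1 library, with -0.76 (adjusted p = 0.249) without the wild-type ZT2 library. Of the kinases that phosphorylate *eIF2alpha*, *Gcn2* and *PEK* were higher in *Atx2* RNAi than in *tyf* (log2 differences 1.17 and 0.69, adjusted p = 0.00457 and 0.0229, edgeR), of which *PEK* lost the call without any 1 of 7 libraries. *Gcn2* had 205 and 173 normalized counts at ZT0 and 274 and 547 at ZT12 in *Atx2* RNAi. In *tyf* it had 145 and 221 at ZT4, which overlapped *Atx2* RNAi at ZT0, and 74.9 and 88.9 at ZT16. Between these genotypes 8 of 31 regulators differed (25.8%, *Atx2* and *tyf* among them), against 9.16% of all genes. *Rheb*, which activates the Tor kinase, had 376 to 385 normalized counts in *tyf*, against 566 to 762 in wild type (log2 change -0.76 ± 0.15, adjusted p = 0.00267, edgeR). *gw*, a scaffold of miRNA silencing, had 32.3 to 453 normalized counts in *tyf*, against 363 to 1075 in wild type (log2 change -1.62 ± 0.42, adjusted p = 0.0146, edgeR), a change of -1.52 (adjusted p = 0.0519) without *tyf* ZT4 replicate 1 and of -2.77 without *tyf* ZT16 replicate 1. *Fmr1*, a translational repressor of neurons, had 745 to 944 normalized counts in *Atx2* RNAi, 657 to 954 in *tyf* and 638 to 1244 in wild type.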

How the data were processed

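PDF-positive LNvs were sorted by GFP, and short single-end reads were taken from their RNA after T7 amplification. The authors quantified transcripts with kallisto, and the deposited values are estimated counts and TPM per FlyBase transcript. Whether strand was used was not given in the sources used here. Of 30438 transcripts, 30191 were matched to genes of Ensembl release 115 (BDGP6), whose coordinates are printed, and the other 247 held 0.234% of the counts. Deposited estimated counts were summed per gene and rounded to whole numbers, and deposited TPM were summed and used for levels between genes.

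Differences were tested with the two-sided edgeR quasi-likelihood F-test (edgeR 4.0.16, limma 3.58.1, R 4.3.3) after TMM scaling and filterByExpr, with Benjamini-Hochberg adjustment over all genes tested and calls at an adjusted p under 0.05. The comparisons at 1 time used the 8 libraries of each experiment as 4 groups of 2 (8643 genes for *Atx2* RNAi, 9503 for *tyf*), and all others used the 14 libraries as 6 groups (9695 genes). The 46 tested factors are those of the 14-library model, and the 8-library *tyf* model held *eIF3g2* in place of *eIF4E5*. Alternatives were DESeq2 1.42.0, other scalings and filters, a length offset, other sets of libraries, a replicate block and leaving out each library. On data simulated for *Atx2* RNAi at ZT0, 16% of genes changed by 1 log2 unit and 83% of those changed by 2 were recovered. For *Atx2* RNAi at both times these were 72% and 97%. Of the genes called in simulated data, those without a set change were 6.6% for *Atx2* RNAi at ZT0 and 5.6% at both times. For *tyf* at ZT16 they were 8.5%. Tables were made in Python 3.11.15 with pandas 2.3.3, and plots with matplotlib 3.10.9.

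Named genes were those called in any comparison plus the eIF4E, eIF4G, *eIF4A*, eEF1, *eEF2* and eRF genes, *eIF2alpha* and the eIF3 paralogue pairs. *eEF5*, *eIF1A*, *eIF3a*, *eIF3c* and overlapping genes were named after their values were seen. The members and lists were chosen with earlier results of these data known. Replicate libraries of a group differed by more than sampling noise.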

Additional observations from a re-analysis of the deposited data

Results flagged for a closer look

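Of the genes named here, 1 was called in the interaction of *Atx2* RNAi and time, against 1.14% of all 9695 genes. *Thor*, the eIF4E-binding repressor, had a difference of -2.17 on the log2 scale between its change at ZT0 and its change at ZT12. The call of *Thor* was lost without *Atx2* RNAi ZT0 replicate 2. *eRF3* was called in the interaction only without the wild-type ZT24 library (-1.65, adjusted p = 0.0123, edgeR).

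Between *Atx2* RNAi and *tyf*, 4 of the 46 tested translation factors (8.7%) differed in the edgeR test, near the 9.16% of all genes. The log2 differences were 0.74 for *eEF1alpha1*, 0.80 for *eRF1*, 0.63 for *eEF1delta* and -1.49 for *eEFSec*. *eEF1alpha1* kept the call in all 21 alternatives, whereas *eRF1* lost it in 2, *eEF1delta* in 3 and *eEFSec* in 15. Of the 31 regulators tested, 8 differed (25.8%), against 9.16% of all genes. *Atx2* (-2.34) and *tyf* (2.92) are the genes that were reduced in these genotypes. The others were *pAbp* (-1.41), *Gcn2* (1.17), *PEK* (0.69), *Rheb* (0.61), *AGO1* (-0.49) and *Pdcd4* (-0.47), of which *pAbp* and *Gcn2* kept the call in all 21 alternatives. The call was lost without any 1 of 6 libraries for *Rheb*, 7 for *PEK* and 8 each for *AGO1* and *Pdcd4*. The sampling times of these genotypes differ by 4 h, which cannot be told apart from the genotype. Of 7 glial markers, 5 were also called lower and 0 higher in *Atx2* RNAi than in *tyf*.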

How the results depend on the processing

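Over 98 pairs of a gene and a comparison and 1946 alternatives, 1683 kept their direction and their side of the threshold, 223 lost a call, 36 gained one and 4 changed direction. Those were *eRF3* in *Atx2* RNAi at ZT0 without the wild-type ZT2 library (0.20), *eIF4G2* in *tyf* with library size only (-0.056), and *eRF3* in wild-type morning over evening with library size only (-0.057) and without the wild-type ZT2 library (-0.32). With 1 library left out, these *eRF3* values ran from -1.88 to 0.20 and from -0.32 to 0.52.

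In *Atx2* RNAi at ZT0, where 1 translation factor was called, DESeq2 called 5, library size only 0, no filter 3, a minimum of 10 counts 2, and all 14 libraries with wild type pooled 3. Library size only called 2 at ZT12 and 19 between *Atx2* RNAi and *tyf*, against 4 in each. In *tyf* at ZT4, DESeq2 called 7 and the 4 libraries alone 1, against 3. Leaving out 1 library gave 0 to 3 calls in *Atx2* RNAi at ZT0, 0 to 4 at ZT12, 0 to 3 in *tyf* at ZT4, 1 to 4 at ZT16, 3 to 9 in *Atx2* RNAi and 7 to 12 in *tyf* at both times, 1 to 4 between these genotypes, 0 to 1 for ZT0 against ZT12 and for its interaction, and 0 in the other 3 comparisons.

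Deviations of same-numbered libraries correlated at 0.134 in *Atx2* RNAi and 0.0752 in *tyf* over 6565 genes, which are not independent. Whether replicate numbers pair the libraries cannot be decided from a lone value per genotype. With the replicate block, the calls were 2 in *Atx2* RNAi at ZT12 against 4 (*eIF3k* and *eIF2beta* lost, at adjusted p = 0.0726 and 0.0676), 5 against 6 in *Atx2* RNAi at both times, 9 against 10 in *tyf* at both times and 3 against 4 between them. Over all genes it gave 23 calls against 41 for *tyf* time and 5 against 8 for its interaction.

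Over all genes, library size only moved the calls in *Atx2* RNAi to 416 at ZT0 against 631 and to 321 at ZT12 against 590, in *tyf* at ZT16 to 989 against 591, and between the genotypes to 1848 against 888. It moved the share of calls that were higher to 13% against 47.2% in *tyf* at ZT16, 40.7% against 55% at ZT4, 42.8% against 57.3% in wild-type morning over evening, 40.4% against 58.2% in *Atx2* RNAi ZT0 over ZT12, 27.5% against 38.7% for its interaction, and 89.7% against 78% in *tyf* ZT4 over ZT16. No filter gave 1126 and 1142 calls in *Atx2* RNAi at ZT0 and ZT12, and 816 and 1006 in *tyf* at ZT4 and ZT16, against 409 and 591. DESeq2 gave 895 in *Atx2* RNAi at ZT12, 784 and 1027 in *tyf*, 327 against 199 for wild-type time, 448 against 261 and 183 against 41 for time in *Atx2* RNAi and *tyf*, and 270 against 111 and 50 against 8 for the interactions. No filter gave 143 for *tyf* time and 214 and 43 for the interactions. The 4 libraries alone gave 222 and 946 in *tyf*, and library size only gave 16 for its interaction.

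In the comparisons at 1 time, where 2 libraries stood against 2, most changes of 1 log2 unit were missed in simulated data. The effect of depth was not tested. The part of RNA from other cells was not tested.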
